A study of Mus musculus with 8 samples.

Results

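The data describe what happened to gene expression in early mouse T-cell progenitors when the genes of both STAT5 transcription factors, Stat5a and Stat5b, were targeted with CRISPR guides before the cells had committed to the T lineage. The comparison rests on 4 of the 8 RNA-sequencing libraries of the series: replicates 1 and 2 of CD25+ Bcl11b-mCherry- cells with Stat5 guides (called sgStat5 here) and replicates 1 and 2 of the same sorted cells with control guides. Libraries were chosen by their labels alone, and a pair is the sgStat5 and the control library of 1 replicate number. All mice were C57BL/6 (B6) animals that carry Cas9, a Bcl2 transgene and Bcl11b-mCherry reporter alleles, so the control cells have the Bcl2 transgene too. Bone-marrow progenitors were held overnight in IL-7, Flt3 ligand and stem cell factor, and then infected with retrovirus that carried the guides, 3 against Stat5a and 3 against Stat5b. The sources used here do not give the target of the control guides. The infected cells grew for 6 days on OP9-DLL1 stroma, which supplies the Notch ligand DLL1, and the medium held 10 ng/ml of IL-7 and the same dose of Flt3 ligand. Lineage-negative, infection marker-positive, CD25+ mCherry- cells were then sorted as pools, so each value is a mean over cells in which guides may have cut 1, several or no copies of a gene. In such bulk samples, fewer cells of a type and less RNA per cell cannot be told apart. The other 4 libraries are the matching CD25+ mCherry+ cells of the same 6-day culture design, with control guides or with Stat5 guides.

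STAT5A and STAT5B are close relatives that wait in the cytoplasm until a cytokine receptor is engaged. IL-7 binds a receptor made of the IL-7 receptor alpha chain and the common gamma chain, whose kinases JAK1 and JAK3 then phosphorylate STAT5, and STAT5 dimers enter the nucleus and bind DNA. Classical STAT5 responses include survival genes of the BCL2 family and inhibitors such as CIS and the SOCS proteins, which shut the receptor down again. In the thymus IL-7 supports the growth and survival of the earliest T-cell precursors, and Bcl11b is switched on as these precursors commit to the T lineage, so mCherry- cells stand before that step.

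RNA of both targeted genes fell. Stat5a (chr11:100859351-100885169, plus strand, mm10) stood at 258 and 257 CPM in the control libraries and 106 and 105 CPM in the sgStat5 libraries (log2 fold change -1.29 with SE 0.07, adjusted p = 0.0002). CPM are counts scaled to library size, a log2 fold change of 1 is a doubling, SE is its standard error, and p-values are from edgeR's quasi-likelihood test, adjusted over all 13775 genes tested. Stat5b (chr11:100780731-100850585, minus strand) stood at 255 and 249 CPM in the control libraries and 144 and 133 CPM in the sgStat5 libraries (log2 fold change -0.86 with SE 0.07, adjusted p = 0.00055). The groups did not overlap for either gene, and both libraries of a group were close to each other. The counted transcripts of these neighbours lie 8765 bases apart. Of the 25 other genes tested within 300 kb of either, 1 passed the test, Stat3 (log2 fold change 0.33, adjusted p = 0.044, and 0.26 without the block described next). The 18 neighbours with at least 10 CPM in control cells had log2 fold changes from -0.56 to 0.73. Small insertions and deletions at a guide's site need not lower the RNA, so these levels show the labels' direction but not how much protein was lost.

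Across the transcriptome 321 of 13775 genes (2.33%) passed the test at an adjusted p of 0.05. Of these, 138 (1%) were higher and 183 (1.33%) lower in sgStat5 cells. The fit treats the replicate number as a block, that is, it compares each sgStat5 library with the control library of its own number. Without the block, 37 genes (0.269%) passed, 17 higher and 20 lower, and all 37 were among the 321 with the same sign. For genes given with a full test, the adjusted p without the block is therefore printed where it ends the call. Where such a call was lost with 1 of the 4 libraries left out, those libraries follow (control 1 is control replicate 1), with the highest adjusted p among those fits. In all 321 genes both pairs moved in the same direction, which the blocked test favours. The control and sgStat5 libraries did not overlap for 307 of the 321, or 95.6%, against 38.1% of all genes tested. The median log2 fold change was 0.93 for genes that passed as higher and -1.07 for those lower, and -0.00097 over all genes tested. In 64 of the higher and 98 of the lower genes the change was at least 2-fold.

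**Figure D1:**
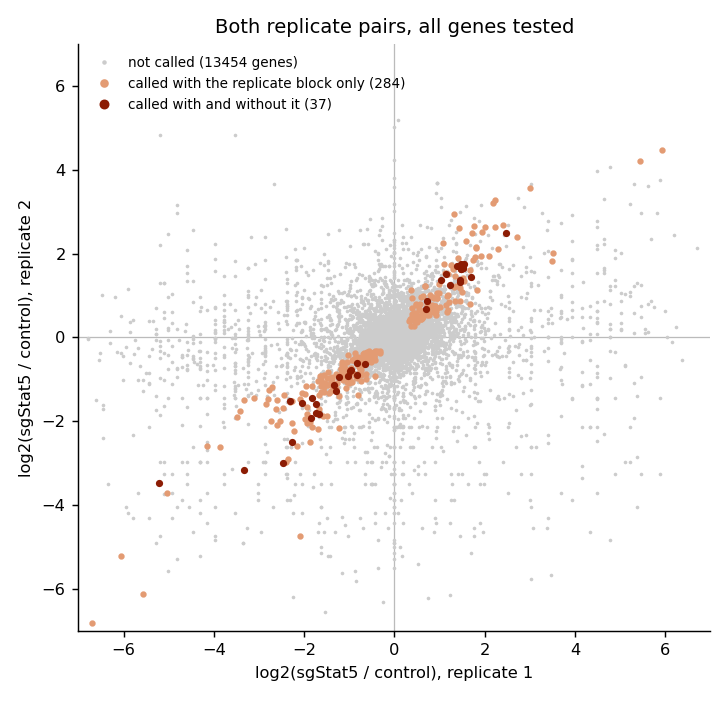
log2 ratio of sgStat5 over control in replicate 1 (x axis) against replicate 2 (y axis) for the 13775 genes tested, from edgeR log2 CPM with a prior count of 0.5. Grey points did not pass, 284 orange points passed with the replicate block only, and 37 dark points passed with and without it. Points that passed lie in the lower left and upper right of the plot, and 7 genes lie beyond the axes, which end at 7.

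The libraries carried 22146490 to 31084744 counts in the mCherry- cells. The sorted cells matched their gate: Il2ra, which encodes CD25, was at 1980.0 to 3152 CPM, and Tcf7, Gata3 and Kit, genes of early T-cell precursors, were each above 100 CPM in all 4 libraries. Bcl11b RNA was at 132 and 45.6 CPM in the control libraries and 132 and 70.1 CPM in the sgStat5 libraries, below the 219 to 797 CPM of the 4 mCherry+ libraries. Cd4, Cd8a and Cd79a each stayed below 1 CPM in the 4 mCherry- libraries. Replicate numbers marked a difference in the source of the cells: the X-inactivation transcript Xist was below 1 CPM in every replicate 1 library and at 1387 CPM or more in every replicate 2 library. Replicate 2 libraries also carried the Y-linked gene Ddx3y, at 29.3 to 46.0 CPM against 101 to 125 CPM in replicate 1. The sources used here do not say if replicates are separate cultures or animals. The p-values of the main fit measure the spread left among all 8 libraries once the shift between replicate numbers is removed. That spread may be in part technical.

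The receptor side of the IL-7 pathway changed in both directions. Of 15 receptor chains and kinases of the common gamma chain family, 2 rose and 3 fell, with a median log2 fold change of -0.0007 against -0.00097 over all genes. With 1 library left out, 1 or 2 rose, 1 or 2 fell and the median ran from -0.118 to 0.085. Il7r, the IL-7 receptor alpha chain, stood at 47.4 and 41.6 CPM in the control libraries and 154 and 112 CPM in the sgStat5 libraries. Both sgStat5 libraries were above both control libraries (log2 fold change 1.57 with SE 0.11, adjusted p = 0.00038), and the change held without the block. Jak3, the kinase that sits on the common gamma chain, rose from 83.6 and 82.2 to 159 and 118 CPM (log2 fold change 0.72 with SE 0.10, adjusted p = 0.0057, 0.19 without the block, 0.099 without control 1). Il2rg, the common gamma chain itself, was at 209.8 and 188 CPM in the control libraries and 217 and 199.6 CPM in the sgStat5 libraries and did not pass (0.07, SE 0.07).

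The 3 members that fell were Il4ra, Il2rb and Il2ra, and each lost its call without the block. Il4ra, the IL-4 receptor alpha chain, went from 257 and 111 to 83.1 and 44.8 CPM. Replicate 1 was above replicate 2 in each group, and both pairs fell, with log2 ratios of -1.63 and -1.31 (log2 fold change -1.47 with SE 0.12, adjusted p = 0.00055, 0.77 without the block). Il2rb, the beta chain shared by the IL-2 and IL-15 receptors, went from 16.8 and 31.5 to 7.19 and 7.06 CPM (log2 fold change -1.73 with SE 0.27, adjusted p = 0.011, 0.12 without the block, up to 0.098 without control 2 or sgStat5 2). Il2ra, the IL-2 receptor alpha chain and the marker used for the sort, went from 3152 and 2887 to 1980.0 and 2155 CPM (log2 fold change -0.55 with SE 0.11, adjusted p = 0.036, 0.34 without the block, up to 0.36 without control 1, sgStat5 1 or sgStat5 2). Cells were sorted as CD25+, so this is a difference within cells that passed the gate. Jak1 and Tyk2 had log2 fold changes of 0.05 and 0.00 and did not pass.

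Stat3, which carries signals of the IL-6 family, rose from 289.7 and 289 to 374 and 352 CPM, a call that did not hold with any 1 library left out. Stat2, Stat4 and Stat6 had log2 fold changes from 0.01 to 0.23 and did not pass.

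Of 10 inhibitors that feed back on cytokine receptors, 3 fell, 1 rose and 6 did not pass (median -0.04; with 1 library left out 0 rose, 1 to 2 fell and the median ran from -0.14 to 0.001). Cish, which encodes CIS and is a classical STAT5 target, stood at 21.5 and 35.2 CPM in the control libraries and 1.98 and 10.5 CPM in the sgStat5 libraries. The groups did not overlap, and the log2 ratio was -3.43 in replicate 1 and -1.75 in replicate 2 (log2 fold change -2.37 with SE 0.36, adjusted p = 0.011, 0.59 without the block, 0.1 without control 1). Socs2 fell from 61.2 and 70.4 to 11.1 and 27.3 CPM (log2 fold change -1.85 with SE 0.22, adjusted p = 0.003, 0.22 without the block). Socs1 fell from 62.5 and 61.1 to 35.4 and 31.4 CPM (log2 fold change -0.89 with SE 0.15, adjusted p = 0.017, 0.15 without the block, up to 0.12 without any 1 library). Socs3 rose from 9.41 and 8.48 to 20.9 and 14.4 CPM (log2 fold change 0.95 with SE 0.20, adjusted p = 0.047, 0.6 without the block, up to 0.51 without any 1 library). Without replicates as a block, 0 of these 10 genes passed.

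Of 21 genes that act downstream of cytokine receptors, 2 rose and 4 fell (median -0.19; with 1 library left out 0 to 2 rose, 1 to 4 fell and the median ran from -0.22 to -0.057). Bhlhe40, a transcriptional repressor, fell from 26.6 and 23.7 to 7.95 and 6.8 CPM (log2 fold change -1.77 with SE 0.20, adjusted p = 0.0021), also without the block. Bcl2, a survival gene, fell from 240.5 and 274 to 78.4 and 144 CPM (log2 fold change -1.26 with SE 0.17, adjusted p = 0.0049, 0.29 without the block, 0.062 without control 1). Every library comes from cells with the Bcl2 transgene, and the sources used here do not say if transgene RNA is part of these counts. Bcl2l1, which encodes the related survival factor BCL-XL, fell from 46.6 and 56.1 to 21.3 and 33.2 CPM (log2 fold change -0.94 with SE 0.13, adjusted p = 0.0054, 0.49 without the block, 0.079 without control 1), and Lif, a cytokine gene, from 68.1 and 63.5 to 36.9 and 49.1 CPM (log2 fold change -0.62 with SE 0.12, adjusted p = 0.035, 0.29 without the block, up to 0.39 without control 1, control 2 or sgStat5 1). Bcl6, a repressor often found opposed to STAT5, rose from 2.64 and 3.79 to 8.49 and 11.6 CPM (log2 fold change 1.64 with SE 0.27, adjusted p = 0.017, 0.14 without the block, up to 0.21 without control 1, control 2 or sgStat5 2). Ccnd1, which encodes cyclin D1, rose from 9.09 and 15.5 to 32.2 and 33.7 CPM (log2 fold change 1.52 with SE 0.32, adjusted p = 0.043, 0.74 without the block, up to 0.36 without control 1, control 2 or sgStat5 1).

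Several genes known as cytokine targets in other cells did not pass. Pim1, a kinase gene, was at 313 and 334 CPM in the control libraries and 303 and 312 CPM in the sgStat5 libraries (-0.07, SE 0.08). Myc was at 209 and 225 CPM in the control libraries and 217 and 227 CPM in the sgStat5 libraries (0.03, SE 0.11). Mcl1, a further survival gene, had a log2 fold change of 0.14 (SE 0.09). The remaining death and survival genes of the BCL2 family did not pass, among them Bax (-0.15), Bak1 (0.03) and Bcl2l11, which encodes BIM (-0.25), so Bcl2 and Bcl2l1 were 2 of 15 tested in that list (neither passed without control replicate 1).

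**Figure D2:**
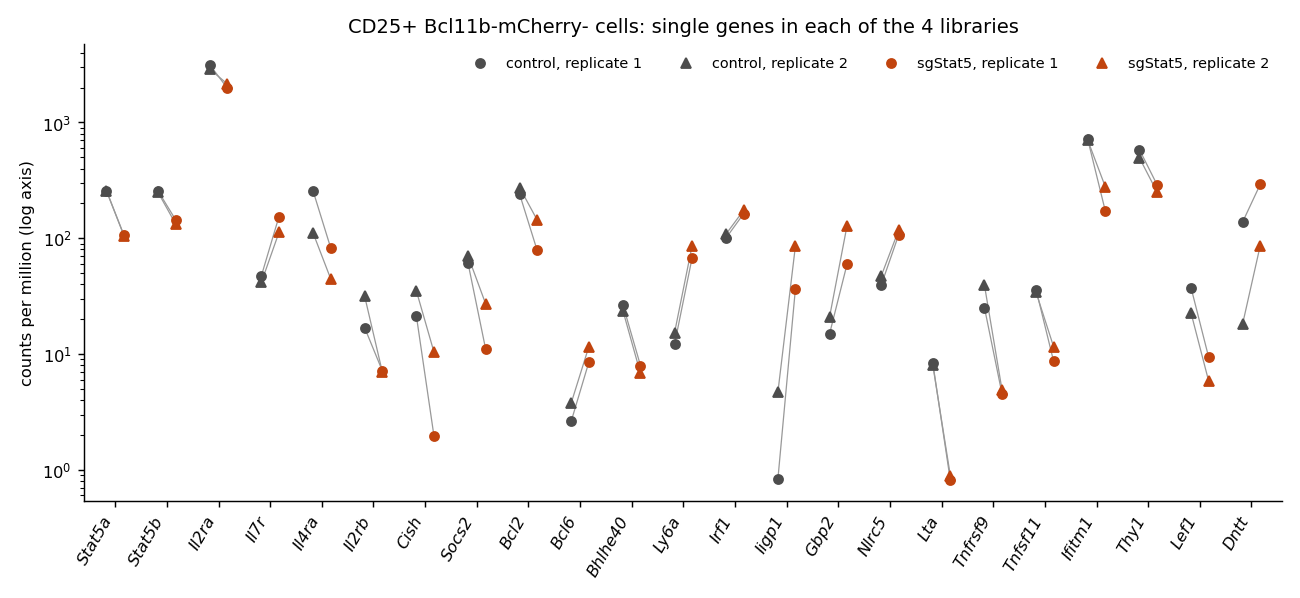
CPM on a log axis for single genes in each of the 4 mCherry- libraries. Grey symbols are control and orange symbols sgStat5, circles are replicate 1 and triangles replicate 2, and lines join the libraries of 1 replicate number. For every gene shown except Dntt, both sgStat5 libraries lie on the same side of both control libraries. Dntt rose within each pair while its groups overlap.

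STAT5 dimers bind the palindrome TTCNNNGAA, and the DNA next to some of the changed genes holds it. The sequences below show these letters, in capitals, with 10 bases on each side, for the feedback inhibitors, effectors and interferon regulatory factors that passed the test and hold the motif (Cish, Socs3, Bcl6 and Irf1), and for Il7r, Lta and Tnfrsf9, which were added after their values were seen. They are RefSeq sequence of GRCm38.p6 (mm10), read 5′ to 3′ on the gene's strand, from windows of 250 bases before to 50 after an annotated start. A gene can have several such starts.
Cish, chr9:107296649-107296677, plus strand: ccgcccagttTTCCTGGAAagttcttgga
Cish, chr9:107296660-107296688, plus strand: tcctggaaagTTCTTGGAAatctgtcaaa
Socs3, chr11:117969502-117969530, minus strand: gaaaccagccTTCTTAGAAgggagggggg
Bcl6, chr16:23988952-23988980, minus strand: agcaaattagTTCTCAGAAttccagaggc
Bcl6, chr16:23981433-23981461, minus strand: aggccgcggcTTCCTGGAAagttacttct
Bcl6, chr16:23981387-23981415, minus strand: ggcaggagtgTTCTGTGAAatccttagag
Bcl6, chr16:23981353-23981381, minus strand: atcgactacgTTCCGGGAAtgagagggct
Irf1, chr11:53769914-53769942, plus strand: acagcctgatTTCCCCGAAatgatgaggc
Il7r, chr15:9530000-9530028, minus strand: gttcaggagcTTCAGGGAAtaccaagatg
Lta, chr17:35205485-35205513, minus strand: accatcactcTTCAGGGAAccaggcttcc
Lta, chr17:35205349-35205377, minus strand: ccgactccctTTCCCAGAAcgcagtagtc
Tnfrsf9, chr4:150927853-150927881, plus strand: caacagctgaTTCCAAGAAacccttcaga
The first motif of Cish begins at the first transcribed base and the second 11 bases on, while the others lie 16 to 168 bases before a start. All Bcl6 sites but the first, and the Tnfrsf9 site, lie inside the counted transcript, before another annotated start. Such letters stood beside genes that fell (Cish, Lta, Tnfrsf9) and beside genes that rose (Socs3, Bcl6, Irf1, Il7r). A window was at hand for 98 of the 138 genes that rose, 140 of the 183 that fell and 10461 of the 13775 tested. TTCNNNGAA was found in 18 (18.4%), 13 (9.29%) and 892 (8.53%) of them, in that order. TTC and GAA with 4 bases between them were found in 7.14% of genes that rose, 7.14% of those that fell and 6.37% of all. Both letter strings read alike on either strand. The 10461 genes had 13266 windows, so genes with several windows had more chances of a match. A match is not a measured binding site, and enhancers farther away were not searched.

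Immunity-related GTPases, which belong to the interferon response, had the highest median of the 30 lists, also with any 1 library left out. Interferons act through STAT proteins and the interferon regulatory factors (IRFs), and their target genes encode GTPases that attack intracellular microbes, sensors of foreign RNA, and the machinery that shows peptides on MHC class I molecules. Of 11 immunity-related GTPases tested, 10 rose and 0 fell (median 1.62, and 1.44 to 1.8 with 1 library left out; 5 rose without the block, and 9 or 10 with 1 library left out). Iigp1 stood at 0.827 and 4.66 CPM in the control libraries and 36.6 and 85.8 CPM in the sgStat5 libraries, with both sgStat5 libraries far above both control libraries (log2 fold change 4.50 with SE 0.37, adjusted p = 0.00055, 0.16 without the block). Its relative Gm4951 went from 0.0394 and 0.643 to 3.5 and 14.6 CPM (log2 fold change 4.63 with SE 0.46, adjusted p = 0.0013, 0.28 without the block), and Gm12185 from 4.76 and 5.85 to 21.6 and 54.4 CPM (log2 fold change 2.78 with SE 0.30, adjusted p = 0.0019, 0.063 without the block). Tgtp2 rose from 121 and 140.3 to 350.0 and 473 CPM (log2 fold change 1.65 with SE 0.11, adjusted p = 0.00032), but its near-identical neighbour Tgtp1 had almost the same counts, so reads may be shared between them. Irgm1 rose from 58.9 and 55.9 to 119.5 and 145 CPM (log2 fold change 1.2 with SE 0.11, adjusted p = 0.00088), and Irgm2, Igtp, Ifi47 and the very large GTPase Gvin1 rose by 1.14, 0.76, 0.79 and 1.6 on the log2 scale (adjusted p without the block 0.16, 0.49, 0.021 and 0.013).

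Guanylate-binding proteins are a second family of interferon-induced GTPases. Of 11 tested, 3 rose and 0 fell (median 0.70; 1 rose without the block). With 1 library left out, 1 to 4 rose, and the median was 0.32 without sgStat5 replicate 2 and 1.04 without sgStat5 replicate 1. Gbp2 rose from 14.9 and 20.8 to 59.8 and 129 CPM (log2 fold change 2.35 with SE 0.21, adjusted p = 0.00082, 0.088 without the block). Gbp5 rose from 11.5 and 12.4 to 26.9 and 29.3 CPM (log2 fold change 1.24 with SE 0.15, adjusted p = 0.003, 0.057 without control 1), and Gbp3 from 35.5 and 32.8 to 56.4 and 77.5 CPM (log2 fold change 0.97 with SE 0.15, adjusted p = 0.012, 0.12 without the block, up to 0.12 without control 1 or control 2). The other members split by replicate: Gbp6 stood at 201 and 74.7 CPM in the control libraries and 212 and 155 CPM in the sgStat5 libraries, so it was about level in replicate 1 and higher in replicate 2, and it did not pass (adjusted p = 0.35). Gbp4, Gbp8, Gbp10 and Gbp11 showed this pattern too.

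Of 36 antiviral interferon-stimulated genes tested, 11 rose and 3 fell, the median was 1.05, and 0 passed without the block. Of the list, 2 rose without control replicate 1, 3 without control replicate 2, 4 without sgStat5 replicate 2 and 12 without sgStat5 replicate 1. The median was 0.62 without sgStat5 replicate 2 and in limma on log2(FPKM + 1). Zbp1, a sensor of Z-form nucleic acid, rose from 2.79 and 2.47 to 18.4 and 13 CPM (log2 fold change 2.55 with SE 0.28, adjusted p = 0.0021, 0.15 without the block). Oas2, an enzyme that starts the breakdown of viral RNA, rose from 6.45 and 2.57 to 24.7 and 14.8 CPM (log2 fold change 2.24 with SE 0.34, adjusted p = 0.011, 0.65 without the block, up to 0.14 without control 1 or control 2), and Oasl2 from 15.3 and 8.36 to 40.9 and 31 CPM (log2 fold change 1.66 with SE 0.27, adjusted p = 0.016, 0.56 without the block, up to 0.16 without control 1, control 2 or sgStat5 2). Ifit3 rose from 1.06 and 0.289 to 3.55 and 1.7 CPM (log2 fold change 2.05 with SE 0.39, adjusted p = 0.03, 0.73 without the block, up to 0.18 without any 1 library). In these 3 genes both replicate 1 libraries were higher than the replicate 2 library of the same guide, and the rise lay within each pair. Isg15, Usp18, Rtp4 and Ifih1 also rose, by 1.36, 1.41, 1.42 and 0.75 on the log2 scale (adjusted p = 0.24 to 0.70 without the block). Bst2 (0.07, SE 0.08) and Ifit2 (0.25, SE 0.26) did not pass.

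The 3 members that fell were Ifitm1, Ifitm2 and Ifitm3, membrane proteins that hinder virus entry and lie next to each other on chromosome 7. Ifitm1 fell from 716 and 703 to 172 and 279 CPM (log2 fold change -1.72 with SE 0.20, adjusted p = 0.003, 0.26 without the block). Ifitm3 fell from 195 and 189.9 to 101 and 129.6 CPM (log2 fold change -0.76 with SE 0.14, adjusted p = 0.023, 0.48 without the block, up to 0.21 without control 1, sgStat5 1 or sgStat5 2), and Ifitm2 from 1019.6 and 886 to 707 and 684 CPM (log2 fold change -0.45 with SE 0.08, adjusted p = 0.027, 0.24 without the block, up to 0.29 without control 1, sgStat5 1 or sgStat5 2). These 3 genes thus went against the other 11 of their list that passed, and 1 of the 3 passed without control replicate 1 or with either sgStat5 library left out.

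Of 9 IRF genes tested, 3 rose and 0 fell (median 0.35; with 1 library left out 1 to 3 rose, 0 fell and the median ran from 0.27 to 0.48). Irf1 rose from 101 and 109 to 164 and 175 CPM with little spread in either group (log2 fold change 0.69 with SE 0.08, adjusted p = 0.0021), also without the block. Irf7, the master regulator of type I interferon genes, rose from 10.5 and 8 to 26.4 and 18.5 CPM (log2 fold change 1.27 with SE 0.18, adjusted p = 0.0081, 0.4 without the block, 0.14 without control 1). Irf9, the DNA-binding partner of STAT2, rose from 25.6 and 25.9 to 49.1 and 42.1 CPM (log2 fold change 0.81 with SE 0.16, adjusted p = 0.032, 0.48 without the block, up to 0.39 without control 1, sgStat5 1 or sgStat5 2). Among interferon receptor chains, Ifnar1 and Ifnar2 did not pass (0.12 and 0.23), and Ifngr1, a chain of the interferon gamma receptor, fell from 138 and 121 to 76.5 and 84 CPM (log2 fold change -0.67 with SE 0.14, adjusted p = 0.038, 0.4 without the block, up to 0.23 without control 1, control 2 or sgStat5 1).

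In the MHC class I pathway 12 of 20 genes rose and 0 fell (median 0.53), while 1 passed without the block. With 1 library left out, 2 rose without control replicate 1, 6 and 7 without sgStat5 replicates 1 and 2, and 10 without control replicate 2. The gene that passed without the block was Nlrc5, the transactivator of MHC class I genes, which rose from 39.3 and 47 to 107 and 118 CPM (log2 fold change 1.38 with SE 0.13, adjusted p = 0.0012). B2m, the light chain of all class I molecules, rose from 773 and 861 to 1178 and 1272 CPM (log2 fold change 0.58 with SE 0.06, adjusted p = 0.0011, 0.063 without the block). Tap1, a peptide transporter, rose by 0.62, and H2-T10, H2-Q7, H2-Q4, H2-K1 and H2-D1 by 1.09, 0.83, 0.79, 0.53 and 0.52 (adjusted p = 0.083 to 0.20 for these 6 without the block). Class I genes are close copies of each other, so their counts may be shared. The immunoproteasome genes Psmb8 and Psmb10 did not pass (0.13 and 0.24), whereas Psmb9 did (0.39; 0.44 without the block).

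MHC class II genes had a median of 0.77 (0.41 without sgStat5 replicate 2 and 1.10 without sgStat5 replicate 1). Yet 0 of 11 passed with edgeR, against 7 at an unadjusted p under 0.05 and 3 with DESeq2. Over all 13775 genes tested, 1757 had an unadjusted p under 0.05 in edgeR and 558 passed with DESeq2. Ciita, their transactivator, stood at 0.905 and 1.8 CPM in the control libraries and 2.25 and 7.57 CPM in the sgStat5 libraries (adjusted p = 0.079), and Cd74, the invariant chain, at 3.66 and 12.5 CPM in the control libraries and 11.4 and 30.5 CPM in the sgStat5 libraries (adjusted p = 0.056). In both, replicate 2 was higher than replicate 1 with either guide. Of 13 Naip and inflammasome genes, 3 rose and 1 fell (median 0.92, and 0.35 in limma on log2(FPKM + 1)). Without the block 1 rose and 0 fell, and 0 passed with either control library left out. Naip5, a sensor of bacterial flagellin, rose from 4.88 and 4.63 to 13.3 and 12 CPM (log2 fold change 1.41 with SE 0.18, adjusted p = 0.0047, up to 0.059 without control 1 or control 2), and Casp1 from 20.5 and 16.6 to 39.7 and 34.4 CPM (log2 fold change 1.0 with SE 0.13, adjusted p = 0.0045, 0.13 without the block, up to 0.059 without control 1 or control 2). Gsdmd, the pore-forming substrate of caspase-1, rose by 0.70 (adjusted p = 0.038, 0.79 without the block), and Nlrp3 fell from 27.2 and 16.4 to 15.1 and 8.53 CPM (log2 fold change -0.89 with SE 0.18, adjusted p = 0.038, 0.82 without the block, up to 0.32 without any 1 library).

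Several interferon-stimulated genes hold a common letter pattern in their promoters. IRFs, among them IRF9, bind repeats of GAAA, and the pattern of GAAA, any 2 bases and GAAA was searched on both strands after the values of these genes were known. It is shown in capitals, with 10 bases on each side, for Gbp2, Isg15, Ifit3, Irgm1 and B2m, which all rose. TTTC, any 2 bases and TTTC is the same pattern on the other strand.
Gbp2, chr3:142620594-142620623, plus strand: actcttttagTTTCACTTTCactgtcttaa
Isg15, chr4:156200871-156200900, minus strand: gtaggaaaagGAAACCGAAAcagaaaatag
Ifit3, chr19:34583363-34583392, plus strand: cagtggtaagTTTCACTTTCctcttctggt
Irgm1, chr11:48871425-48871454, minus strand: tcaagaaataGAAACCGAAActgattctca
B2m, chr2:122147538-122147567, plus strand: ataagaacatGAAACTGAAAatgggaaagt
The pattern was found in the windows of 31 of 98 genes that rose (31.6%), 7 of 140 that fell (5%) and 413 of 10461 tested (3.95%). Socs1, Ifitm2 and Ifitm3 were among the 7 that fell. Of the 98, 10 held both this pattern and TTCNNNGAA, against 64 of all tested. The pattern was chosen with these genes in view, so the shares describe them and were not tested.

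**Figure D3:**
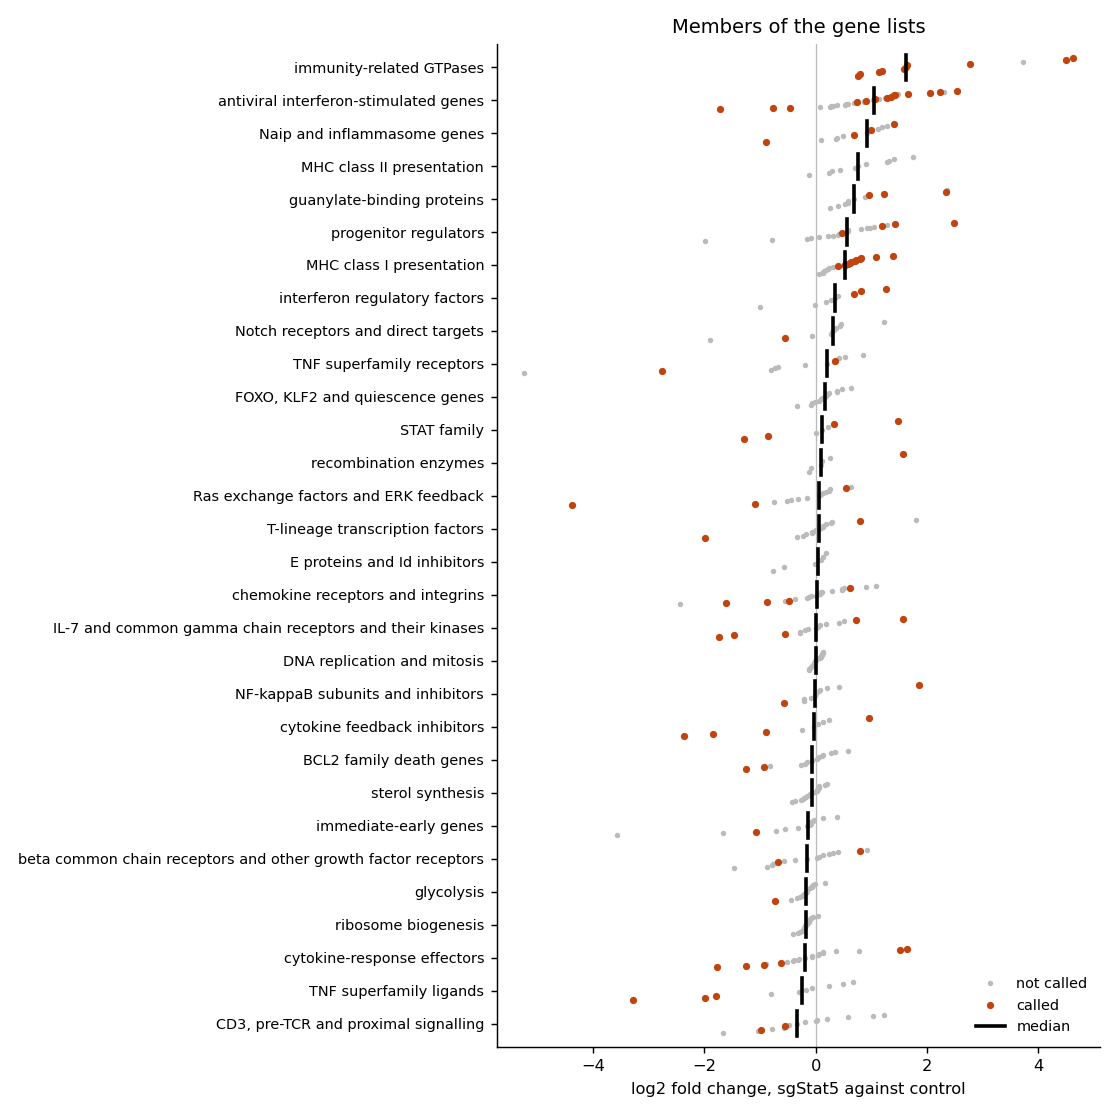
log2 fold change of sgStat5 against control for each tested member (points) of 30 gene lists, ordered by the median of the list (black bar). Orange points passed the test and grey points did not. Immunity-related GTPases lie at the top with a median of 1.62, and CD3 and pre-TCR genes at the bottom with -0.34.

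Ligands and receptors of the tumour necrosis factor (TNF) family held some of the deepest losses. Of 10 ligands tested, 3 fell and 0 rose (median -0.24; with 1 library left out 0 rose, 2 fell and the median ran from -0.41 to -0.20). Lta, which encodes lymphotoxin alpha, stood at 8.34 and 8.03 CPM in the control libraries and 0.809 and 0.887 CPM in the sgStat5 libraries (log2 fold change -3.28 with SE 0.35, adjusted p = 0.002). Tnfsf11, which encodes RANKL, fell from 35.9 and 34.1 to 8.63 and 11.5 CPM (log2 fold change -1.80 with SE 0.17, adjusted p = 0.0012), and Tnfsf8, the CD30 ligand, from 2.79 and 5.82 to 0.719 and 1.4 CPM (log2 fold change -2.00 with SE 0.38, adjusted p = 0.032, 0.31 without the block, up to 0.27 without any 1 library). Tnf and Ltb, which lie beside Lta in the genome, did not pass (-0.17 and -0.07). Of 13 receptors tested, 1 fell and 1 rose. Their median was 0.21, but 0.004 to 0.041 with any 1 library left out, when 1 fell and 0 rose. Tnfrsf9, the costimulatory receptor 4-1BB, fell from 25.1 and 39.3 to 4.54 and 4.91 CPM (log2 fold change -2.76 with SE 0.22, adjusted p = 0.00055). Cd27, a receptor carried by progenitors, rose from 97.3 and 80.9 to 122 and 106 CPM (log2 fold change 0.36 with SE 0.07, adjusted p = 0.041, 0.76 without the block, up to 0.35 without any 1 library). Lta, Tnfsf11 and Tnfrsf9 passed without the block as well.

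Signalling molecules inside the cell changed in single members. Of 12 genes of the NF-kappaB system, Bcl3, an atypical inhibitor, rose from 6.89 and 4.85 to 23.7 and 18.5 CPM (log2 fold change 1.85 with SE 0.25, adjusted p = 0.0062, 0.12 without the block, up to 0.073 without control 1 or control 2) and Nfkb1, the p50 precursor, fell from 420.1 and 386 to 275 and 265 CPM (log2 fold change -0.58 with SE 0.08, adjusted p = 0.0071, 0.087 without the block, up to 0.093 without control 1 or sgStat5 2). Of 16 genes of the Ras and ERK pathway, 2 fell and 1 rose (median 0.07; with 1 library left out 0 to 1 rose, 1 to 2 fell and the median ran from -0.034 to 0.043). Rasgrp3, a Ras exchange factor, was nearly lost, from 4.01 and 2.64 to 0.0899 and 0.222 CPM (log2 fold change -4.38 with SE 0.55, adjusted p = 0.0041). Rasgrp1, the exchange factor used downstream of the pre-TCR, fell from 88.1 and 70.1 to 50.1 and 26.8 CPM (log2 fold change -1.09 with SE 0.15, adjusted p = 0.0065, 0.54 without the block, 0.057 without control 2), and Dusp6, an ERK phosphatase, rose from 70.3 and 66.8 to 92.6 and 109 CPM (log2 fold change 0.55 with SE 0.10, adjusted p = 0.029, 0.32 without the block, up to 0.22 without control 2, sgStat5 1 or sgStat5 2). Jund, 1 of 14 immediate-early genes, fell from 111 and 110.4 to 47.5 and 57.3 CPM (log2 fold change -1.08 with SE 0.10, adjusted p = 0.00078), also without the block, while Jun, Fos and Egr1 had log2 fold changes of -0.05, -0.08 and -0.11 and did not pass.

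Most regulators of T-cell identity did not pass. Of 17 T-lineage transcription factors, Ikzf2, which encodes Helios, rose from 116 and 78.3 to 206 and 133 CPM (log2 fold change 0.79 with SE 0.10, adjusted p = 0.0037, 0.79 without the block, 0.067 without control 1), and Lef1, a partner of beta-catenin, fell from 37.4 and 22.6 to 9.44 and 5.87 CPM (log2 fold change -1.99 with SE 0.30, adjusted p = 0.011, 0.7 without the block, up to 0.081 without control 2 or sgStat5 1). Tcf7, Gata3, Runx1 and Myb had log2 fold changes of 0.13, 0.14, -0.07 and 0.10, with SEs from 0.06 to 0.09, and did not pass. Bcl11b itself stood at 132 and 45.6 CPM in the control libraries and 132 and 70.1 CPM in the sgStat5 libraries (adjusted p = 0.42). Its replicates differed more than the groups did. Of 10 Notch receptors and targets, 0 rose and 1 fell, and that 1 was Il2ra, described above. Notch1 (0.28), Hes1 (0.45) and Dtx1 (0.36) did not pass.

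Of 15 genes for CD3 chains, pre-TCR and proximal kinases, 2 fell and 0 rose, and 0 passed without the block. Their median was -0.34, with -0.28 in the first pair and 0.04 in the second, and -0.03 without sgStat5 replicate 1. Thy1, a glycoprotein of the T-cell surface, fell from 584 and 496 to 291 and 252 CPM, and the groups did not overlap (log2 fold change -0.99 with SE 0.08, adjusted p = 0.00055, 0.17 without the block). Lat, an adaptor of T-cell receptor signalling, fell from 181 and 98.1 to 126 and 66.1 CPM (log2 fold change -0.54 with SE 0.10, adjusted p = 0.029, 1 without the block, up to 0.23 without any 1 library). Cd3e was at 35.7 and 3.73 CPM in the control libraries and 19.1 and 3.8 CPM in the sgStat5 libraries and did not pass, with replicate 1 above replicate 2 in both groups. Dntt, which encodes the template-independent polymerase of receptor recombination, rose within each pair, from 138 and 18.3 to 292 and 86.5 CPM, although the groups overlap (log2 fold change 1.56 with SE 0.29, adjusted p = 0.026, 0.98 without the block, up to 0.087 without control 2, sgStat5 1 or sgStat5 2). Rag1 (0.12) and Rag2 (0.26) did not pass.

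Among 21 progenitor regulators 4 rose and 0 fell (median 0.56). With 1 library left out 1 or 2 rose, and the median was 0.09 without sgStat5 replicate 1 and 0.96 without sgStat5 replicate 2. Without the block 1 rose, Ly6a, which encodes a surface marker and not a regulator. Ly6a, the gene for Sca-1 on stem and progenitor cells, stood at 12.2 and 15.3 CPM in the control libraries and 67.9 and 86.4 CPM in the sgStat5 libraries and had the lowest adjusted p of all genes (log2 fold change 2.49 with SE 0.09, adjusted p = 8.4e-06). Hoxa7, a homeobox gene of progenitors, rose from 1.5 and 3.02 to 4.36 and 7.72 CPM (log2 fold change 1.43 with SE 0.29, adjusted p = 0.038, 0.56 without the block, up to 0.39 without any 1 library), and Mef2c, a myeloid and lymphoid progenitor factor, from 8.27 and 12.7 to 26.4 and 22.2 CPM (log2 fold change 1.2 with SE 0.26, adjusted p = 0.049, 0.24 without the block, up to 0.45 without control 1, sgStat5 1 or sgStat5 2). Cd93 rose from 257 and 234 to 335 and 344 CPM (log2 fold change 0.47 with SE 0.09, adjusted p = 0.031, 0.24 without the block, up to 0.21 without control 2, sgStat5 1 or sgStat5 2). Kit, the stem cell factor receptor, was at 346 and 357 CPM in the control libraries and 475 and 455 CPM in the sgStat5 libraries (adjusted p = 0.19), and Spi1, which encodes PU.1 and marks cells before commitment, at 30.7 and 47.2 CPM in the control libraries and 49.3 and 50.5 CPM in the sgStat5 libraries (adjusted p = 0.53). Neither passed. Flt3 was below 2 CPM in all 4 libraries.

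Homing receptors changed in both directions. Of 23 chemokine receptors and integrins, 3 fell and 1 rose (median 0.02; with 1 library left out 0 to 2 rose, 2 to 3 fell and the median ran from -0.025 to 0.051). Ccr4, the receptor for CCL17 and CCL22, fell from 28.7 and 30.5 to 8.13 and 11.1 CPM (log2 fold change -1.62 with SE 0.17, adjusted p = 0.0018), also without the block. Cxcr5 fell from 133 and 109 to 79.2 and 53.5 CPM (log2 fold change -0.88 with SE 0.10, adjusted p = 0.0023, 0.28 without the block), and Itga6, an integrin alpha chain for laminin, from 260.4 and 160.2 to 172 and 125 CPM (log2 fold change -0.48 with SE 0.08, adjusted p = 0.022, 0.93 without the block, up to 0.25 without control 1, sgStat5 1 or sgStat5 2). Itga4, the alpha chain of VLA-4, rose from 996 and 1001 to 1644 and 1440.5 CPM (log2 fold change 0.63 with SE 0.08, adjusted p = 0.0047, 0.078 without the block, 0.062 without control 1). Il6st, which encodes the gp130 chain shared by the IL-6 family of receptors, rose from 16.4 and 16.5 to 30.3 and 26.9 CPM (log2 fold change 0.79 with SE 0.13, adjusted p = 0.016, 0.22 without the block, up to 0.24 without control 1, sgStat5 1 or sgStat5 2).

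Genes of growth and division had mostly small changes, and those of ribosome biogenesis and glycolysis were mostly lower. For comparison, 1757 of all 13775 genes tested had an unadjusted p under 0.05 and 558 passed with DESeq2. Of 20 DNA replication and mitosis genes, 0 passed with edgeR, 0 had an unadjusted p under 0.05 and 0 passed with DESeq2, and the median was -0.002. Of 20 ribosome biogenesis genes 0 passed with edgeR or DESeq2 and 3 had an unadjusted p under 0.05. Their median was -0.17, and 1 of the 20 was above 0. Of 19 sterol synthesis genes 0 passed with edgeR or DESeq2 and 3 had an unadjusted p under 0.05 (median -0.07). Of 17 glycolysis genes 1 fell, Eno1, from 356 and 366 to 209 and 225 CPM (log2 fold change -0.74 with SE 0.09, adjusted p = 0.0043, 0.17 without the block, 0.058 without control 1), and Ldha (-0.05, SE 0.11) and Hk2 (-0.11, SE 0.22) did not pass. The 17 glycolysis genes had a median of -0.16, with -0.23 in the first pair and -0.13 in the second. Only 1 of the 17 was above 0. Control and sgStat5 libraries did not overlap for 14 of 20 ribosome biogenesis and 9 of 17 glycolysis genes. For sterol synthesis this held for 7 of 19 and for replication and mitosis for 4 of 20, against 38.1% of all genes tested. Of 15 FOXO and quiescence genes 0 passed with edgeR, 5 had an unadjusted p under 0.05 and 1 passed with DESeq2.

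Outside these lists, the genes with the largest rises included neighbours of listed interferon genes as well as genes of other kinds. Higher in sgStat5 cells were Mpeg1, a pore-forming protein of phagocytes, from 0.354 and 1.61 to 4.22 and 6.5 CPM (log2 fold change 2.53 with SE 0.39, adjusted p = 0.011, 0.36 without the block, 0.062 without control 1), Trib2, a pseudokinase, from 0.866 and 2.6 to 9.89 and 9.23 CPM (log2 fold change 2.46 with SE 0.38, adjusted p = 0.011, 0.14 without the block), and Olfm5, from 9.72 and 16.3 to 47.5 and 69.7 CPM (log2 fold change 2.21 with SE 0.25, adjusted p = 0.0024, 0.38 without the block). Ifit1bl1, Gm5431, Ifi214, March1 and Sytl4 rose by 2.47, 2.13, 2.08, 2.03 and 2.00 on the log2 scale, with adjusted p from 0.0034 to 0.038, and none of these 5 passed without the block. Ifit1bl1 lies near Ifit3 on chromosome 19, Gm5431 lies near Gm12185 on chromosome 11, and Ifi214 belongs to the Ifi200 family.

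The gene with the deepest fall among those at 5 CPM or more was Ndrg2, a member of the NDRG family, which stood at 35.8 and 9.87 CPM in the control libraries and 1.08 and 0.739 CPM in the sgStat5 libraries (log2 fold change -4.47 with SE 0.38, adjusted p = 0.00055, 0.14 without the block). Nlrp6, a NOD-like receptor gene, fell from 13 and 3.63 to 0.719 and 0.591 CPM (log2 fold change -3.45 with SE 0.38, adjusted p = 0.0021, 0.38 without the block). In both, control replicate 1 was several times higher than control replicate 2, and both sgStat5 libraries were below both. Pdzd2 fell from 21.4 and 14.3 to 3.5 and 3.36 CPM (log2 fold change -2.34 with SE 0.20, adjusted p = 0.0006, 0.078 without the block), Ikzf4, which encodes Eos, from 7.48 and 8.39 to 2.02 and 1.48 CPM (log2 fold change -2.21 with SE 0.27, adjusted p = 0.0034, 0.063 without the block), and Lilrb4a, an inhibitory receptor gene, from 3.9 and 7.04 to 0.854 and 1.15 CPM (log2 fold change -2.42 with SE 0.30, adjusted p = 0.0038, 0.099 without the block). H19, an imprinted long non-coding RNA, fell from 34.8 and 15.2 to 3.46 and 5.43 CPM (log2 fold change -2.31 with SE 0.39, adjusted p = 0.017, 0.24 without the block, 0.15 without control 1). Actr3b, Adam19, Gm15663, Nhsl2 and Pld4 had log2 fold changes of -2.58, -2.38, -2.30, -2.22 and -2.22, with adjusted p from 0.0031 to 0.038, and none of these 5 passed without the block.

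Each of the 91 named genes that passed was also fitted with 1 of the 4 mCherry- libraries left out. Of these, 32 passed in all 4 fits, among them Stat5a, Stat5b, Il7r, Il4ra, Socs2, Bhlhe40, Ly6a, Irf1, Nlrc5, Iigp1, Gbp2, Zbp1, Ifitm1, Lta, Tnfrsf9, Tnfsf11, Rasgrp3, Jund, Thy1 and Ccr4. Without control replicate 1, 51 lost their call, against 32 without control replicate 2, 28 without sgStat5 replicate 1 and 29 without sgStat5 replicate 2. Leaving out 1 library leaves 1 of its replicate number to stand alone in that gate, so these fits lean on the spread of the other groups.

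Markers of other cells were counted for each library. Summed levels of 11 B-cell markers were 7.60 and 12.1 CPM in control and 10.2 and 12.1 CPM in sgStat5 libraries, with Ms4a1 at 0 throughout. Those of 20 myeloid and dendritic markers were 314 and 341 against 346 and 331 CPM, and those of 17 NK and innate lymphoid markers 539 and 638 against 445 and 498 CPM. Those of 14 mast, megakaryocyte and erythroid markers were 1152 and 913 against 1548 and 1174 CPM. Of the tested members of these 4 lists (4, 17, 14 and 8) 0 passed with edgeR or DESeq2, against 0, 4, 3 and 0 at an unadjusted p under 0.05. Summed levels of 18 stromal markers were 231 and 513 CPM in control and 197 and 447 CPM in sgStat5 libraries, so replicate 2 was above replicate 1 with either guide, and Lum was at 0 throughout. Within replicate 1 most collagen genes stood at or near 0 in the sgStat5 library, as for Col1a1 with 7.99 and 50.3 CPM in control and 0 and 36.2 CPM in sgStat5 cells. Of 16 stromal markers tested, Timp3 fell (-2.40, adjusted p = 0.0047), and 7 fell with sgStat5 replicate 2 left out. Timp3 stood at 5.23 and 5.95 CPM in control and 1.08 and 1.03 CPM in sgStat5 libraries, without the replicate difference of the summed markers. Its call held without the block (adjusted p = 0.038) but not without control replicate 2. In mCherry+ cells it went from 10.2 and 9.29 to 0.751 and 0.932 CPM. The part of stromal RNA in the gene changes was not tested.

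**Figure D4:**
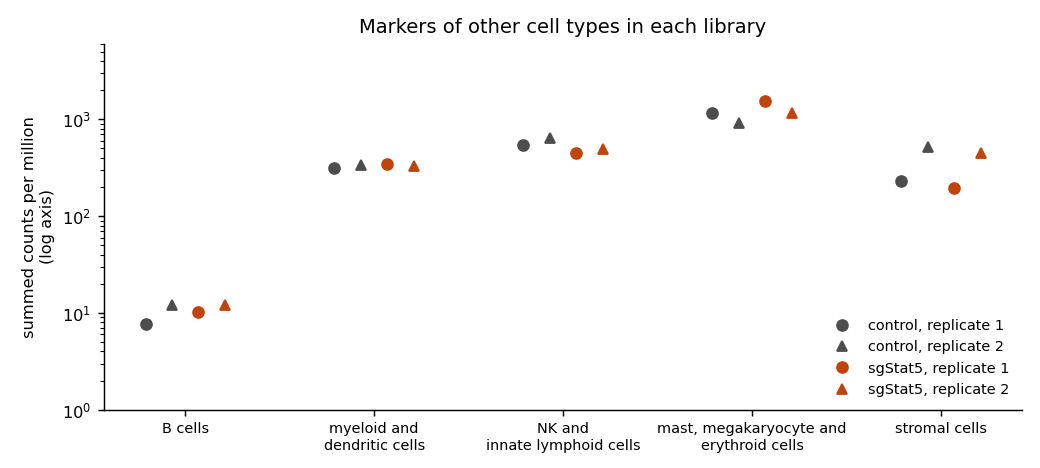
Summed CPM on a log axis of markers of 5 other cell classes in each mCherry- library. Grey is control, orange sgStat5, circles are replicate 1 and triangles replicate 2. B-cell markers lie between 7.60 and 12.1 CPM, and stromal markers are higher in both replicate 2 libraries (447 and 513 CPM) than in both replicate 1 libraries (197 and 231 CPM).

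The same genes were read in the mCherry+ cells, which share no library with the mCherry- cells. Both gates were fitted together, with the same replicate block and the same estimate of the spread, so their calls are not independent. Xist split the replicate numbers alike in both gates, so the gates may also share a source of cells within a replicate number. Of the 321 genes, 317 had the same sign there, and 288 passed in both gates, which is 89.7% of the early and 25.4% of the late calls. In mCherry+ cells 1132 of all 13775 genes tested passed. The share with the same sign in both gates was not counted over all genes tested. A test of the difference between the effects passed 0 of 13775 genes with edgeR (0%), with 814 at an unadjusted p under 0.05, and 71 with DESeq2. The 4 genes of opposite sign were Lef1, Ahnak, Fam169b and Ptgr1. Lef1 fell by 1.99 in mCherry- cells and had a log2 fold change of 0.15 in mCherry+ cells, a difference of -2.15 (adjusted p = 0.29). With no low-count filter that difference passed. For Ly6a the changes were 2.49 and 2.58, for Il7r 1.57 and 1.53, for Cish -2.37 and -3.00, and for Irf1 0.69 and 1.21, in mCherry- and mCherry+ cells in that order. Socs1 had -0.89 and -0.11, and Bcl6 1.64 and 2.83, differences that did not pass (adjusted p = 0.53 and 0.69).

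**Figure D5:**
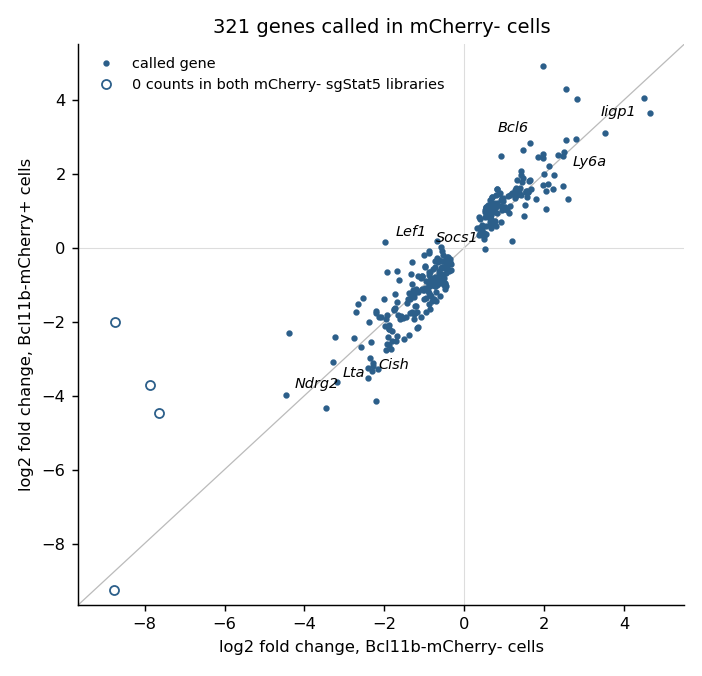
log2 fold change of sgStat5 against control in mCherry- cells (x axis) and mCherry+ cells (y axis) for the 321 genes that passed in mCherry- cells, with the line of equal change. Of these, 317 lie in the lower left and upper right of the plot, and the 4 open circles have 0 counts in both mCherry- sgStat5 libraries, so their position depends on the value the fit adds to 0. Lef1 lies at -1.99 on the x axis and 0.15 on the y axis.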

How the data were processed

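RNA of 8 libraries was sequenced from libraries made with the NEBNext Ultra RNA kit, per the labels' protocols. STAR 2.4.0, RSEM 1.2.25, bcl2fastq 1.8.4 and the build GRCm38 (mm10) are listed in the submitters' processing notes. The deposited counts were made with HOMER, which summed unnormalized exon tags of a RefSeq transcript for each gene, per the file headers. The authors' FPKM values come from the same program, scaled to transcript length and tag total, per the file headers. The headers name no strand option, so overlapping genes on opposite strands cannot be told apart, and 44 tested genes share identical counts with another gene.

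Counts were fitted with edgeR 4.0.16 (R 4.3.3, limma 3.58.1, DESeq2 1.42.0): filterByExpr, TMM, a quasi-likelihood F-test over all 8 libraries with 1 mean per group and the replicate number as a block, two-sided, Benjamini-Hochberg adjusted over 13775 of 24506 genes. SE was taken as the size of the log2 fold change over the root of F. The block was in the rule that defined the comparison. As a check, the replicate 1 deviations of any 2 groups had correlations r from 0.504 to 0.689 across 12017 genes. The common dispersion was 0.0178 with the block and 0.0853 without it, on 3 and 4 residual degrees of freedom. Replicate libraries differed with a chi-square per degree of freedom of 22.7 to 62.0, far above counting error, so no libraries were duplicates.

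Counts for this comparison (13775 genes) were simulated from the blocked fit itself, with its replicate shifts and its dispersion. The changed genes were drawn only from those with higher fitted counts. On these counts the fit with the block recovered 83% of 2-fold and 92% of 4-fold changes with 5.91% false calls. The fit without it gave 40%, 70% and 0%. Such a simulation favours the block by its setting, so it cannot decide between these fits. Members, lists and tests were chosen with earlier results of these data known. The 30 descriptive lists and 5 marker lists hold 527 genes, of which 490 were tested. Named genes are Stat5a and Stat5b, a fixed set of cytokine, lineage and interferon genes, the 15 highest and 15 lowest log2 fold changes among genes that passed with the same sign in both pairs and at least 5 CPM in the higher group, and up to 4 genes that passed in each direction per list. Results of some genes are not reported here. Other genes were named after their values were seen, mostly as members that did not pass. Alternatives were no block, mCherry- libraries alone, other scaling, filters and tools, log2 of FPKM plus 0.1 or 1 in limma, and each library left out. The promoter pattern of GAAA, any 2 bases and GAAA was added after the values were seen. Promoter and transcript start sequences are from RefSeq, GRCm38.p6.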

Additional observations from a re-analysis of the deposited data

How the results depend on the processing

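The count of 321 genes fell to 37 with no replicate block and to 191 with limma on log2(FPKM + 1), and rose to 507 in the 4 mCherry- libraries alone and to 558 with DESeq2. It ran from 94 to 242 with 1 library left out, lowest without control replicate 1 and highest without sgStat5 replicate 2. All 321 genes kept their sign in each alternative that gave them a value. Higher genes made up 43.0% of calls, against 30.2% without sgStat5 replicate 2 and 50.3% without sgStat5 replicate 1. The difference between the gates passed 0 genes with and without the block, 71 with DESeq2, 11 with no low-count filter, and 0 to 6 with 1 library left out. Those 6, without sgStat5 replicate 2 of the mCherry- cells, included the stromal genes Col1a1, Col1a2 and Col6a1. Of 91 named genes that passed, 58 also passed in all 7 other fits that keep the block and all libraries. With 2 libraries a group and 3 residual degrees of freedom, changes near 2-fold are recovered in part, and genes below about 1 CPM rest on few counts.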

Other observations

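Some sets of neighbouring genes, picked out after their values were seen, held several genes that passed and are described without a test of the set. The 3 Khdc1 genes on chromosome 1 all fell: Khdc1a from 201 and 182 to 77.1 and 93.9 CPM, Khdc1c from 105 and 90.0 to 40.1 and 45.2 CPM, and Khdc1b by 1.39 on the log2 scale (adjusted p = 0.0043, 0.0057 and 0.011, and 0.059, 0.078 and 0.083 without the block). Akr1c12 and Akr1c13, 2 of 3 aldo-keto reductase genes of the Akr1c family tested, on chromosome 13, had log2 fold changes of -1.36 and -1.32 (adjusted p = 0.0013 and 0.0015, and 0.21 and 0.14 without the block). Members of these families are similar in sequence, so their counts may share reads. Trim12a, Trim12c, Trim34a and Trim34b, antiviral TRIM genes on chromosome 7, rose by 0.75, 0.82, 1.02 and 1.02 (adjusted p = 0.23 to 0.72 without the block). On chromosome 1, Ifi209, Ifi213, Ifi214 and Ifi203 of the Ifi200 family of DNA sensors rose by 1.95, 3.51, 2.08 and 0.92 (adjusted p = 0.28 to 0.62 without the block), while the other 7 of the 11 members tested did not pass, among them Ifi204, Ifi205 and Aim2 (0.61, 0.34 and 0.38).

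In 4 genes no count was left in either sgStat5 library. Fam19a3 had 49 and 65 counts in the control libraries and was at least 33.2-fold lower, against a floor of 3 counts over both sgStat5 libraries. Tshz2 had 22 and 40 counts and was at least 18.0-fold lower, and Rnase10 had 31 and 21 counts and was at least 15.1-fold lower. Pdlim4 was at least 30.3-fold lower, but 90 of its 104 control counts were in replicate 1. None of these 4 passed without the block (adjusted p = 0.12 to 0.83).

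The long non-coding RNAs Malat1 and Neat1, neighbours on chromosome 19, rose from 871 and 405 to 1149 and 781 CPM and from 67.4 and 52.0 to 90.7 and 78.3 CPM (adjusted p = 0.037 and 0.026). Both missed the threshold without the block, at 0.96 and 0.82. Sh2d1a, an adaptor of SLAM receptors, rose from 4.6 and 1.51 to 16.3 and 6.76 CPM and Slamf6 from 2.36 and 1.38 to 8.99 and 5.36 CPM, each with replicate 1 above replicate 2 in both groups (adjusted p = 0.0019 and 0.032, and 0.81 and 0.77 without the block).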
